A study of Drosophila melanogaster with 15 samples.

Results

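The 6 libraries compared here were the 3 Drosophila melanogaster RNA libraries titled control RNAi and the 3 titled control, out of 15 in the series. The libraries were taken by their titles, and each carried counts for 15682 genes, of which 10668 had enough counts to be tested. Both groups were labelled with the w1118 strain background, a white mutant stock, and with skeletal muscle obtained by dissection, RNeasy Micro extraction and stranded total RNA. The control RNAi libraries were labelled with the genotype control RNAi, and the control libraries with the genotype control. The treatment label read RNAi for every library of the series, so it did not separate the groups. The other 9 libraries were 3 titled dpp RNAi #1, 3 titled dpp RNAi #2 and 3 titled dppOE, labelled dpp overexpression. The driver line, the target of the control hairpin, age, sex and the number of animals per library were not given in the labels. Nothing in the labels says that the 3 libraries of a group came from separate animals. The p-values therefore measure the spread between libraries within a group, which may be technical. That spread was estimated over all 15 libraries, so it includes the 9 libraries of the dpp groups. The number block in the library code was 018 for control RNAi and 043 for control, and block and genotype cannot be told apart in this comparison. The block 043 was shared with dpp overexpression, whereas both dpp RNAi groups had 047.

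In Drosophila an RNAi control usually carries the same driver as the experimental animals and a hairpin against an unrelated sequence, so that both groups engage the RNAi machinery. A plain control usually lacks the hairpin and can carry different insertions and linked chromosome segments. A dissected piece of muscle contains muscle fibres together with the nerve endings, tracheae, fat body, haemocytes, cuticle and sense organs that stay attached to it. The sum of RNA from these tissues is what a bulk library measures.

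Gene counts summed to 31767317 to 33290702 per control RNAi library and to 36807879 to 53325394 per control library. The HTSeq summary lines, for unaligned reads and for reads without a single gene, took 18.39 to 19.54% of all entries in control RNAi and 14.48 to 14.66% in control. Levels are CPM, the counts of a gene scaled to a common library size with TMM factors, as mean ± SD over 3 libraries. In both groups the most abundant transcript was ninaE, the rhodopsin of the outer photoreceptors of the eye, with 3.27 to 3.65% of gene counts in control RNAi and 3.42 to 3.72% in control. The arrestins Arr2 and Arr1 and the channel gene trpl of the same cells also ranked among the 10 most abundant genes. The list of 38 sarcomere genes took only 0.843 to 0.886% of scaled counts in control RNAi and 1.48 to 1.66% in control. The libraries of both groups therefore went against their tissue label in their leading transcripts, and they are called by their titles here. No library pair within a group agreed within sampling noise, with 9.29 to 13.98 chi-square units per gene among control RNAi libraries and 5.22 to 13.63 among control libraries. dpp, which encodes the BMP ligand of the series title, averaged 31.5 ± 3.02 CPM in control RNAi and 33.5 ± 1.61 CPM in control (n = 3 here and in every group), and the difference was not called (log2 fold change -0.09 ± 0.12 SE, adjusted p = 0.568 in edgeR's quasi-likelihood test).

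The 2 kinds of control differed widely. At a Benjamini-Hochberg adjusted p under 0.05 in edgeR's quasi-likelihood test, 4823 of the 10668 tested genes were called (45.2%), 2234 of them higher (20.9%) and 2589 lower (24.3%) in control RNAi. These shares are the background for the call counts of every list below. A change of at least 2-fold was called for 728 genes (6.82%), 374 higher (3.51%) and 354 lower (3.32%). The 3 control RNAi libraries did not overlap the 3 control libraries for 6635 genes (62.2%). The median log2 fold change over all tested genes was -0.04. With library size as the only scaling, the calls shifted to 1613 higher and 4213 lower, a share of 27.7% higher among calls against 46.3% with TMM.

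The distance between control RNAi and control libraries lay within the range of distances between either of them and the dpp groups. The root-mean-square difference in log2 CPM had a median of 0.658 over the 9 pairs of a control RNAi and a control library, against 0.303 among control RNAi libraries and 0.198 among control libraries. Between dpp overexpression and control, which share a code block, it was 0.627. Between dpp RNAi and control it was 0.599 for #1 and 0.595 for #2. Between control RNAi and dpp RNAi it was 0.672 for #1 and 0.684 for #2, and between control RNAi and dpp overexpression 0.806. The second principal component held 23.16% of the variance and put the 3 control RNAi libraries at -45.63 to -37.35, apart from all other libraries at -0.88 to 21.81. The third, with 12.59%, put the control libraries at -31.30 to -30.04 and every other library above 0.

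**Figure D1:**
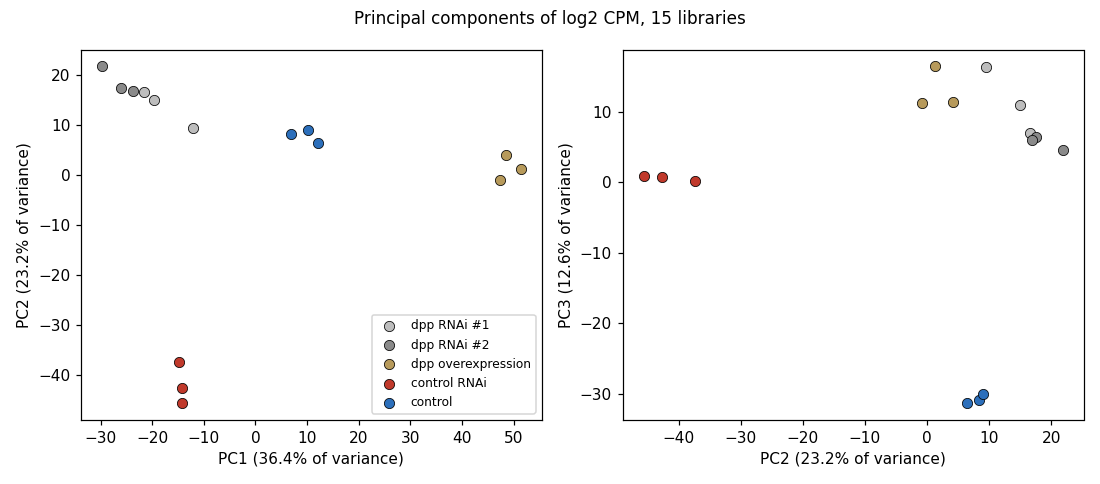
Principal components of log2 CPM of the tested genes, 1 point per library, with the first against the second component on the left and the second against the third on the right. The 3 control RNAi libraries (red) lie alone at -45.63 to -37.35 on the second component, and the 3 control libraries (blue) lie alone at -31.30 to -30.04 on the third.

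Muscle genes were lower in control RNAi. Of 38 sarcomere genes tested, 28 fell and 2 rose, and 21 fell by at least 2-fold, with a list median log2 fold change of -1.04 beside -0.04 over all tested genes. Their levels summed to 8432 to 8860 CPM in control RNAi libraries and 14850 to 16580 CPM in control libraries. Fewer muscle cells in a sample and less of these transcripts per cell cannot be told apart in bulk RNA. The sum in the other 9 libraries was 13350 to 21280 CPM, and for 26 of the 38 genes all 3 control RNAi libraries lay below the other 12 libraries, which was so for 7.98% of all tested genes. No sarcomere gene set the control libraries apart from the other 12.

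Among the contractile proteins, Act79B, the actin of tubular muscles such as those of the leg, had 40.3, 37.9 and 37.6 CPM in control RNAi libraries, against 450, 463 and 373 CPM in control libraries. The groups did not overlap, and the log2 fold change was -3.47 ± 0.33 (adjusted p = 1.36e-05). The muscle LIM protein gene Mlp84B, whose product sits at the Z-disc, had 101, 94.8 and 93.6 CPM in control RNAi against 511, 505 and 420 CPM in control (-2.31 ± 0.22, adjusted p = 7.08e-06). TpnC41C, a troponin C isoform, averaged 18.2 ± 0.54 CPM in control RNAi and 89.6 ± 8.53 CPM in control (-2.30 ± 0.30, adjusted p = 0.000128). These genes were named for the largest changes in the list, so smaller changes of its other called members follow from that choice. Values for genes of the core filaments were looked up after the list counts were known. Myosin heavy chain (Mhc) averaged 1293 CPM in control RNAi and 2663 CPM in control (-1.04), the titin-like sls 553 and 1138 CPM (-1.04), paramyosin (Prm) 128 and 323 CPM (-1.33), and projectin (bt) 434 and 1339 CPM (-1.62). Act88F, the actin of the indirect flight muscles, averaged 8.80 CPM in control RNAi and 17.4 CPM in control (-0.98, adjusted p = 0.00197). Flightin (fln) and TpnC4, other components of flight muscle, stood at 0.35 and 0.478 CPM in control RNAi and at 0.186 and 0.372 CPM in control, and neither was called. The 2 sarcomere-list genes that rose were Lasp (0.83), an actin-binding LIM and SH3 protein, and Msp300 (Msp-300; 0.37), a giant nesprin that anchors nuclei. The Msp300 call was lost in the fit with each library's trend on exonic length removed.

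Genes of muscle calcium handling and energy buffering gave 3 lower and 1 higher of 7. SERCA (Ca-P60A), the pump that returns calcium to the sarcoplasmic reticulum, had 981, 943 and 1000 CPM in control RNAi against 2322, 2265 and 2000 CPM in control (-1.17 ± 0.18, adjusted p = 0.000252). The ryanodine receptor RyR (Rya-r44F), which releases that calcium, was lower by a smaller step, with 374 ± 7.64 CPM in control RNAi and 572 ± 7.28 CPM in control (-0.61 ± 0.08). Arginine kinase (Argk1, in the files Argk), which buffers ATP in invertebrate muscle, averaged 1419 ± 54.7 CPM in control RNAi and 2126 ± 57.4 CPM in control (-0.58 ± 0.08). The member that rose was Ca-beta (0.31), a calcium channel subunit.

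**Figure D2:**
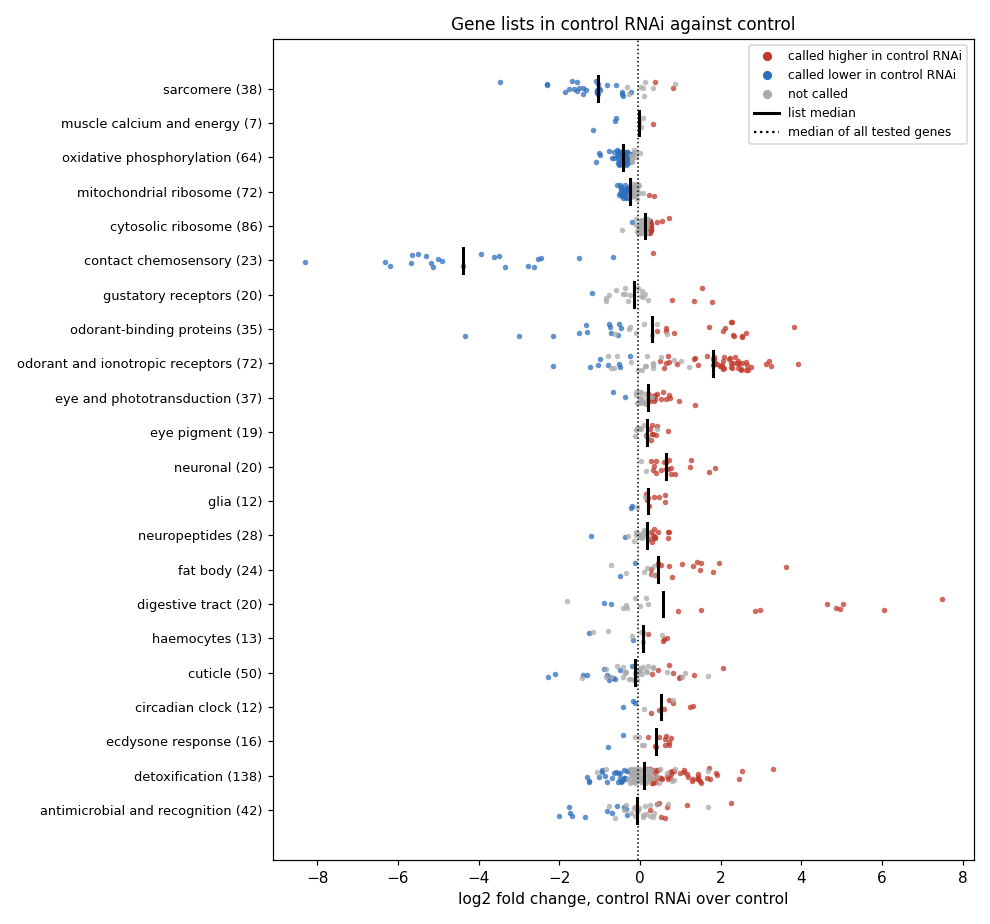
Log2 fold change of control RNAi over control for each tested member of 22 gene lists, 1 point per gene, with the number tested in brackets, black bars at list medians and a dotted line at the median of all tested genes (-0.04). The contact chemosensory list lies mostly below -2 with a median of -4.40, the sarcomere list has a median of -1.04, and most odorant and ionotropic receptors lie to the right with a median of 1.81.

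The largest shift of any list was in contact chemosensation, where 22 of 23 genes fell and 21 fell by at least 2-fold, with a median log2 fold change of -4.40. The list held the CheA and CheB families, small secreted proteins of which some are known from taste hairs on the legs, and ppk23, ppk25 and ppk29, sodium channel subunits of pheromone-sensing neurons. The summed level was 19.5 to 30.3 CPM in control RNAi libraries, against 245 to 332 CPM in control libraries. For 20 of 23 genes control RNAi lay below all 12 other libraries, which was so for 7.98% of all tested genes. CheA75a had 1.29, 1.44 and 0 CPM in control RNAi, against 81.4, 75.5 and 60.5 CPM in control. The third control RNAi library had no count of it, which allows up to 0.0901 CPM there, and without that library the log2 fold change was -5.73 instead of -6.32. CheA7a likewise had 1.36, 1.67 and 0.031 CPM in control RNAi against 59.99, 53.7 and 42.6 CPM in control (-5.68 ± 0.61, adjusted p = 3.74e-05).

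Other members of the Che families were near or at their detection limit in control RNAi. CheB38c averaged 0.151 CPM in control RNAi and 11.1 CPM in control, and CheA84a 0.128 and 6.53 CPM, with log2 fold changes of -6.20 and -5.66. Without control RNAi replicate 2 these were -7.40 and -6.34. CheB93a had counts in 1 control RNAi library alone (0.74, 0 and 0 CPM, against 11.9, 9.92 and 8.24 CPM in control), so its fitted fold change depended on that library (-5.30 with all libraries and -4.71 without replicate 3, while without replicate 1 the control RNAi group had no count). CheA86a had 1 count summed over control RNAi and 685 over control, a ratio of 471 (control over control RNAi, 95% counting interval 84.2 to 18600), and CheB74a had 3 against 186 counts (ratio 42.6, interval 14.4 to 208). These intervals cover counting error only. Within the channel subunits the direction was mixed. ppk23 averaged 1.08 CPM in control RNAi and 5.96 CPM in control (-2.45) and ppk29 (CG13568) 3.21 and 5.12 CPM (-0.67), whereas ppk25 rose to 4.03 CPM in control RNAi, against 3.19 CPM in control (0.33), a call that was lost with library size as the only scaling and in 5 of the 6 fits without 1 library.

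Hox genes, which give body segments their identity, differed by member. Of 9 tested Hox genes and Hox cofactors 3 fell and 3 rose, and Antp, Ubx and Scr were the lower ones. Antp, which specifies the thorax and legs, had 3.08, 2.53 and 3.26 CPM in control RNAi against 10.04, 9.74 and 9.55 CPM in control (-1.72 ± 0.26, adjusted p = 0.000207). Ubx, the Hox gene of the posterior thorax, averaged 0.253 CPM in control RNAi and 2.53 CPM in control (-3.31), and Scr, active in the labium and first thoracic segment, 27.7 ± 4.28 and 37.4 ± 1.30 CPM (-0.43). The head Hox gene pb and the cofactors exd and hth were the 3 that rose (0.32, 0.22 and 0.93), with hth at 273 ± 15.8 CPM in control RNAi and 143 ± 3.61 CPM in control. Deformed (Dfd) and lab, which act in the head, were not called (-0.19 and 0.16), nor was abd-A (1.88). Among genes in no list, and chosen after their values were seen, were Poxm, a muscle-progenitor factor (0.347 CPM in control RNAi, 5.75 CPM in control), and Scp1, a sarcoplasmic calcium-binding protein (7.30 CPM in control RNAi, 222 CPM in control, log2 fold change -4.92 ± 0.50).

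Most tested odorant receptors, which sit in the antenna and the maxillary palp, were higher in control RNAi, and the ionotropic receptors were mixed. Of 124 odorant and ionotropic receptors in the files 72 had enough counts to be tested, and of these 47 rose and 8 fell, 41 rose by at least 2-fold, and the list median was 1.81. With a minimum count of 50 for testing, 25 receptors were called instead of 55, since fewer were tested. Their summed level was 249 to 323 CPM in control RNAi and 138 to 160 CPM in control. Orco, the co-receptor that all odorant receptors of the Or family need, had 68.0, 65.9 and 91.7 CPM in control RNAi against 18.6, 12.4 and 10.9 CPM in control (2.42 ± 0.36, adjusted p = 0.000316). Or46a averaged 8.13 ± 1.09 CPM in control RNAi and 1.28 ± 0.57 CPM in control (2.64 ± 0.37), and Or92a 5.0 ± 0.77 and 1.05 ± 0.32 CPM (2.23 ± 0.24). Ir8a, a co-receptor of antennal ionotropic receptors, rose by 2.51 on the log2 scale, whereas Ir25a and Ir76b, which are also used outside the antenna, were at 0.32 (not called) and 0.71. The 8 that fell were led by Ir52b (-2.16), Ir93a (-1.25) and Ir41a (-1.04).

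Odorant-binding proteins, which carry odorants in the fluid of sensory hairs, split by member, with 15 higher and 12 lower of the 35 tested among 52. Obp83b (Os-E) had 288, 271 and 302 CPM in control RNAi against 65.6, 45.3 and 37.7 CPM in control (2.53 ± 0.48, adjusted p = 0.00167). Obp59a averaged 30.8 ± 1.80 CPM in control RNAi and 4.95 ± 1.17 CPM in control (2.62 ± 0.31). The pheromone-binding lush, an antennal member, had 45.2 CPM in control RNAi and 10.8 CPM in control (2.05). Obp56a ran against them with 8.05 ± 1.49 CPM in control RNAi and 64.1 ± 11.3 CPM in control (-2.996 ± 0.30, adjusted p = 1.95e-05), together with Obp50a (-4.35) and Obp19b (-2.16). Of 60 gustatory receptors 20 were tested, 4 rose and 1 fell (20% and 5%, beside 20.9% and 24.3% of all tested genes). Gr21a and Gr63a, which form the antennal carbon dioxide receptor, rose by 1.79 and 1.33 on the log2 scale. Both were rare, at 0.773 and 0.866 CPM in control RNAi and 0.216 and 0.331 CPM in control. In dpp RNAi #1, dpp RNAi #2 and dpp overexpression Gr21a averaged 0.203, 0.938 and 0.068 CPM. In the same groups Gr63a averaged 0.161, 1.57 and 0.474 CPM. The sugar receptor subunit Gr64f (1.53) and Gr10a (0.80) also rose, while Gr33a, a bitter co-receptor, was the one lower (-1.20).

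These genes also varied among the other groups. Obp83b (Os-E) averaged 75.8 CPM with dpp RNAi #1, 165 CPM with dpp RNAi #2 and 16.7 CPM with dpp overexpression, so that control RNAi at 287 CPM was the highest of the 5 groups and control at 49.5 CPM the fourth. Orco gave 14.2, 44.7 and 6.53 CPM in the same 3 groups. For 21 of the 72 receptors and 9 of the 35 odorant-binding proteins, all 3 control RNAi libraries lay above the other 12, which was so for 8.71% of all tested genes. Contact chemosensory sums ranged from 103 to 640 CPM in the other 9 libraries, so the control libraries fell within that range and control RNAi below it.

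**Figure D3:**
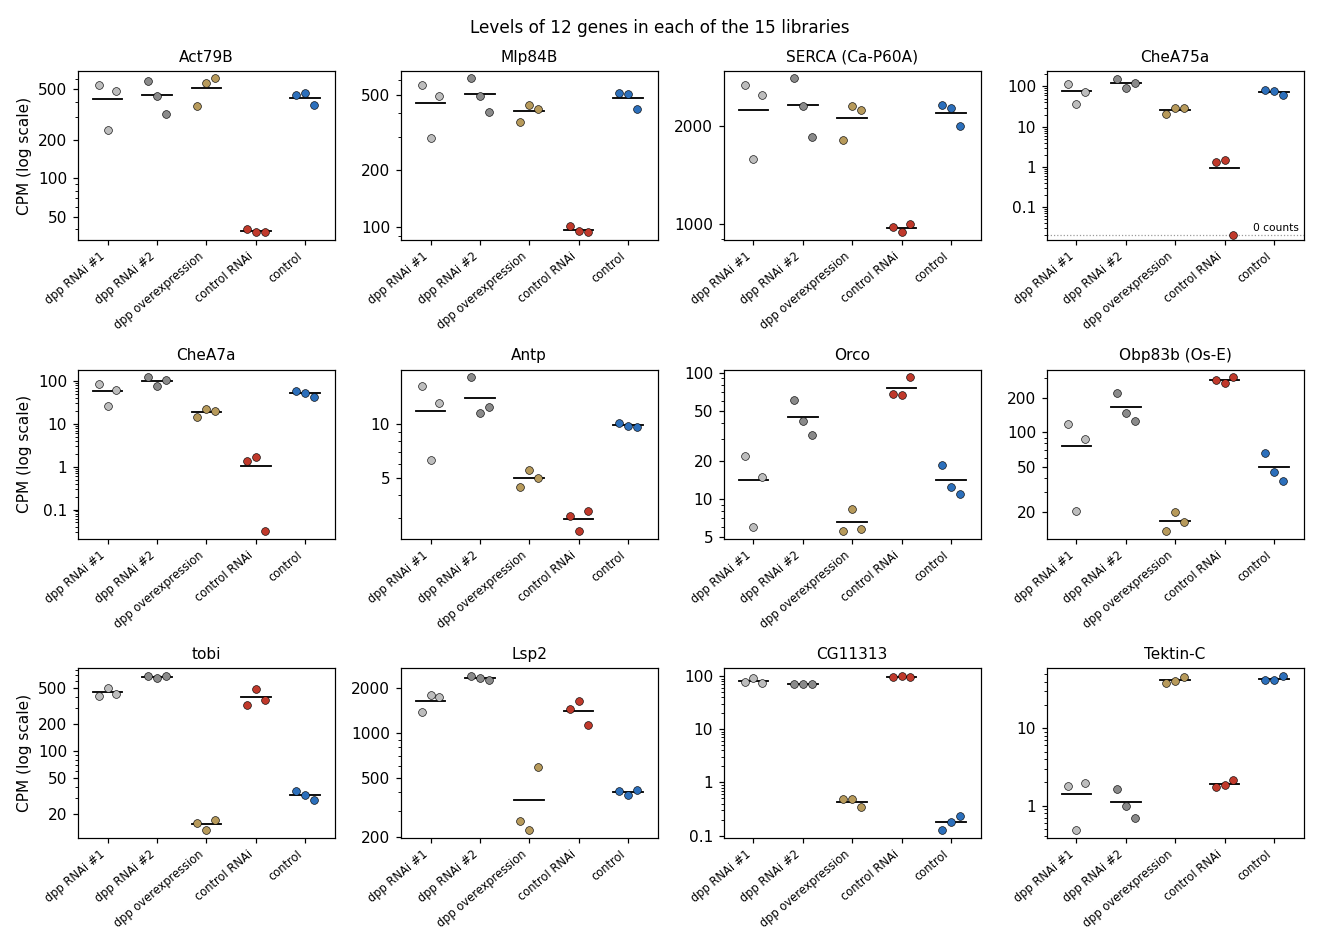
CPM of 12 genes on log axes, 1 point per library and a black line at each group mean, with control RNAi in red left of control in blue and the dpp groups in grey and brown. Act79B, Mlp84B, SERCA, CheA75a and CheA7a were lowest in all 3 control RNAi libraries, and Orco and Obp83b were highest there. CG11313 and Tektin-C split the 9 libraries with RNAi in their title from the 6 others, which were those of code block 043.

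Neuronal genes were higher in control RNAi by a moderate step. Of 20 tested, 18 rose and 0 fell in edgeR (0 at an unadjusted p under 0.05, 0 with DESeq2), with a median of 0.64. The voltage-gated sodium channel gene para had 258, 279 and 250 CPM in control RNAi against 85.9, 68.6 and 61.1 CPM in control (1.87 ± 0.51, adjusted p = 0.0121). The nicotinic receptor subunit nAChRalpha1 (nAcRalpha-96Aa) averaged 17.5 ± 2.19 CPM in control RNAi and 5.31 ± 1.05 CPM in control (1.71 ± 0.27), and the syntaxin gene Syx1A 101 ± 9.09 and 41.7 ± 4.45 CPM (1.28 ± 0.10). The pan-neuronal RNA-binding gene elav averaged 252 CPM in control RNAi and 162 CPM in control (0.64), and the 2 not called were futsch (0.04) and Gad1 (0.15). Neuronal genes were long, with a median exonic length of 8092 bases beside 2041 over all tested genes, and 15 of the 20 belonged to the longest decile. Those 15 had a median log2 fold change of 0.69, against 0.12 over the 1050 genes of that decile. With the length trend of each library removed, the list median was 0.50 and 17 genes were higher and 1 lower.

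Of 12 glial genes 8 rose and 2 fell (wrapper and Tret1-1), with a median of 0.19. With library size as the only scaling 4 were higher and 3 lower. With the length trend removed 6 were higher and 1 lower, and with DESeq2 9 and 2. The astrocyte gene alrm averaged 109 ± 9.87 CPM in control RNAi and 70.7 ± 6.47 CPM in control (0.63 ± 0.10), the GABA transporter Gat (CG1732) 157 ± 2.88 and 103 ± 8.23 CPM (0.61 ± 0.10), and the glutamate transporter Eaat1 611 ± 44.8 and 438 ± 6.28 CPM (0.48 ± 0.06). Among 28 neuropeptide genes 13 rose and 2 fell. The largest change was a decrease in CCHa2, a peptide hormone known from fat body and gut, with 147, 161 and 134 CPM in control RNAi against 363, 337 and 324 CPM in control (-1.21 ± 0.06, adjusted p = 2.2e-09). Nplp4 was the other lower one (-0.38) and was not called with DESeq2. Nplp3 averaged 452 ± 8.68 CPM in control RNAi and 275 ± 19.5 CPM in control (0.72), and AstC (Ast-C) 89.5 ± 3.44 and 55.2 ± 4.54 CPM (0.70).

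Eye genes changed little in their leading transcripts. Of 37 genes of the eye and phototransduction 18 rose and 2 fell, with a median of 0.19. Without control RNAi replicate 2, 13 of the 37 were called in all. ninaE averaged 36190 ± 1838 CPM in control RNAi and 34280 ± 1496 CPM in control, and its groups overlapped (0.08 ± 0.08, adjusted p = 0.456). The arrestins Arr2 and Arr1 were also not called (-0.02 and -0.09), nor was trpl (-0.09). Rh5, the opsin of a subset of inner photoreceptors, had 564, 596 and 559 CPM in control RNAi against 221, 222 and 228 CPM in control (1.36 ± 0.07, adjusted p = 1.16e-09). The lipid transfer gene rdgB averaged 480 ± 17.5 CPM in control RNAi and 244 ± 6.48 CPM in control (0.98 ± 0.08), and the kinase gene rdgA 943 ± 27.6 and 565 ± 13.6 CPM (0.74 ± 0.06). The 2 that fell were pinta (-0.66), needed for visual pigment, and the scaffold gene inaD (-0.38). The kinase-myosin gene ninaC averaged 4427 ± 188 CPM in control RNAi and 3848 ± 270 CPM in control (0.20, adjusted p = 0.0552).

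Of 19 eye pigment genes 10 rose and 0 fell in edgeR (1 lower at an unadjusted p under 0.05, 0 lower with DESeq2), with a median of 0.17. With library size as the only scaling 6 were higher and 3 lower. The pigment genes w and v, and the body colour gene y, which is in no pigment list, often mark fly transgenes or insertion stocks, and all 3 were called higher. In dpp RNAi #1, dpp RNAi #2 and dpp overexpression w averaged 12.9, 11.3 and 42.5 CPM, beside 12.6 CPM in control. In the same groups v averaged 65.55, 67.05 and 55.4 CPM, and y 0.177, 0.388 and 0.295 CPM. White (w), mutated in w1118, had 17.15, 17.5 and 15.6 CPM in control RNAi against 11.8, 12.8 and 13.3 CPM in control (0.41 ± 0.08, adjusted p = 0.00106). Vermilion (v), which encodes tryptophan oxygenase, averaged 84.6 ± 4.78 CPM in control RNAi and 52.4 ± 1.78 CPM in control (0.69 ± 0.09). Yellow (y) was near its detection limit at 0.503 ± 0.21 CPM in control RNAi and 0.282 ± 0.017 CPM in control, and its call (log2 fold change 0.82 ± 0.32, adjusted p = 0.0461) was lost without any of the 3 control libraries, without control RNAi replicate 1 or 2, with DESeq2, with library size or upper-quartile scaling and without a filter.

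Fat body genes rose. Of 24 tested, 16 rose and 2 fell (Ilp6, and Lpin, which was not called with DESeq2), with a median of 0.44, and their levels summed to 19570 to 22840 CPM in control RNAi and 10950 to 12310 CPM in control. The alpha-glucosidase gene tobi, a target of insulin and glucagon-like signals, had 325, 490 and 366 CPM in control RNAi against 35.7, 32.4 and 28.6 CPM in control (3.61 ± 0.15, adjusted p = 2.2e-09). The larval serum protein Lsp2 had 1433, 1641 and 1128 CPM in control RNAi against 406, 380 and 410 CPM in control (1.81 ± 0.31), and Lsp1beta averaged 439 ± 43.8 and 112 ± 2.87 CPM (1.97 ± 0.13). The lipoprotein gene apolpp (Rfabg), which carries lipids in haemolymph, averaged 8669 ± 818 CPM in control RNAi and 4966 ± 476 CPM in control (0.80 ± 0.11). Lsp2 averaged 1633 CPM with dpp RNAi #1 and 2325 CPM with #2, but 355 CPM with dpp overexpression. For 6 of the 24 genes all 9 libraries with RNAi in their title lay above the other 6 (5.6% of all tested genes). Those other 6 were the libraries of code block 043. For 2 of the 24 control RNAi lay above all 12 other libraries, beside 8.71% of all tested genes, and for 5 control lay below the other 12, beside 3% of all tested genes.

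Among 47 digestive tract genes 20 were tested, of which 10 rose and 2 fell, but the genes that rose most were rare. The midgut protease betaTry had 181 counts over the control RNAi libraries and 1 over the control libraries (ratio of control RNAi to control 263, 95% counting interval 46.7 to 10500), at 1.63, 2.07 and 2.02 CPM in control RNAi. Its neighbour alphaTry averaged 2.52 CPM in control RNAi and 0.036 CPM in control (6.06). The 2 that fell were more abundant carbohydrate-digesting enzymes, the amylase Amy-p (40.3 ± 5.59 CPM in control RNAi, 75.4 ± 6.91 CPM in control, -0.90 ± 0.24) and the maltase Mal-A1 (9.11 ± 2.21 and 15.0 ± 0.53 CPM, -0.72 ± 0.19). The summed level of the list was 430 to 488 CPM in control RNAi and 476 to 523 CPM in control, so those sums overlapped.

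Mitochondrial genes of the nuclear genome were lower. Of 64 oxidative phosphorylation subunits 55 fell and 0 rose in edgeR (0 higher at an unadjusted p under 0.05, 0 with DESeq2), with a median of -0.42. For 59 of the 64 all 3 control RNAi libraries lay below the other 12, which was so for 7.98% of all tested genes. The complex III gene ox averaged 77.4 ± 5.63 CPM in control RNAi and 166 ± 2.10 CPM in control (-1.10 ± 0.14), and UQCR-Q (CG7580) of the same complex 116 ± 4.72 and 232 ± 17.3 CPM (-0.996 ± 0.15). The complex I gene ND-24 (CG5703) averaged 59.9 ± 8.25 CPM in control RNAi and 121 ± 2.83 CPM in control (-1.01 ± 0.13). Of 72 mitochondrial ribosome genes 40 fell and 2 rose (mRpL30 and mRpL43), with a median of -0.24, led by mRpL9 at 14.46 ± 1.30 CPM in control RNAi and 21.4 ± 0.71 CPM in control (-0.56). These genes were short, with median exonic lengths of 862 and 783 bases. With the length trend removed, 49 of the 55 respiratory subunits and 23 of the 40 mitochondrial ribosome genes were again called lower, and the list medians were -0.32 and -0.13. The 37 mitochondrially encoded genes were listed at 0 in all 15 libraries and could not be compared.

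Cytosolic ribosomal protein genes were slightly higher in control RNAi than in control, with a median of 0.12. Of 86 tested, 27 rose and 1 fell (RpS15Ab, not called with DESeq2), and this count depended on the method. The number higher was 45 with DESeq2, 52 in a fit of the 6 libraries alone, 64 with the length trend removed and 10 with library size as the only scaling. For 22 of the 86 all 3 control libraries lay below the other 12, beside 3% of all tested genes. For 1 of the 86 control RNAi lay above all 12 other libraries, beside 8.71% of all tested genes. RpL22 averaged 211 ± 6.88 CPM in control RNAi and 128 ± 20.6 CPM in control (0.72 ± 0.16), and RpS27 453 ± 13.7 and 308 ± 12.1 CPM (0.56 ± 0.07). The elongation factor eEF1alpha1 (Ef1alpha48D) averaged 6244 ± 368 CPM in control RNAi and 5024 ± 62.1 CPM in control (0.31, adjusted p = 0.0015). Of 35 proteasome genes tested among 48, 5 fell and 0 rose in edgeR (0 higher at an unadjusted p under 0.05, 0 with DESeq2), a share below the 24.3% of all genes, and 19 were lower with library size as the only scaling. The 5 were Prosalpha1 (27.4 ± 1.00 CPM in control RNAi, 40.7 ± 1.27 CPM in control), its copy Prosalpha1R (CG30382), Rpt4, Prosbeta5 and Prosalpha6 (not called with DESeq2), and reads of near-identical copies could have been divided between the first pair. Glycolysis, trehalose and glycogen genes went both ways, with 7 of 22 higher and 7 lower (31.8% each, beside 20.9% and 24.3% of all tested genes). Tps1, which makes trehalose, averaged 716 ± 26.1 CPM in control RNAi and 460 ± 25.0 CPM in control (0.64 ± 0.10), while the glycogen synthase gene Glys (CG6904) averaged 121 ± 3.48 and 210 ± 6.88 CPM (-0.79 ± 0.08).

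Most clock genes were higher in control RNAi. Of 12 tested, 7 rose and 3 fell (Clk, jet and cyc), with a median of 0.53. The jet and cyc calls were lost with DESeq2, in the fit of the 6 libraries alone and with the length trend removed. Pdp1 had 931, 1006 and 1052 CPM in control RNAi against 426, 434 and 400 CPM in control (1.25 ± 0.07, adjusted p = 8.69e-09), period (per) averaged 182 ± 4.66 and 102 ± 11.9 CPM (0.83 ± 0.23), and takeout (to), a clock output gene, 80.7 ± 3.38 and 32.6 ± 3.15 CPM (1.31 ± 0.15). Clk, whose RNA normally cycles out of phase with per, averaged 44.2 CPM in control RNAi and 59.3 CPM in control (-0.42, adjusted p = 0.00944). The timeless gene (tim) averaged 935 CPM in control RNAi and 526 CPM in control and was not called (0.83, adjusted p = 0.0987). In the fit of the 6 libraries alone, 9 clock genes were called higher, against 7 in the fit of all libraries. Pdp1 was also high with dpp RNAi, at 874 CPM for #1 and 820 CPM for #2, against 306 CPM with dpp overexpression. For 7 of the 12 clock genes all 9 libraries with RNAi in their title lay above the other 6, those of code block 043. This was so for 5.6% of all tested genes. Collection times were not given in the labels, and their part in these differences was not tested.

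Hormone-response genes rose in the ecdysone list, with 10 of 16 higher and 2 lower and a median of 0.39. The nuclear receptor gene Eip75B averaged 243 ± 13.4 CPM in control RNAi and 147 ± 0.58 CPM in control (0.73 ± 0.06), and Hr38, which is also induced by neuronal activity, 33.6 ± 2.95 and 19.8 ± 0.31 CPM (0.76 ± 0.11). ImpL1 and ImpE1 were the lower ones (-0.80 and -0.42), and ImpE1 was not called with DESeq2. The ecdysone genes were long, with a median exonic length of 6984 bases, and with the length trend removed 8 were higher and the list median was 0.18. Among 10 juvenile hormone genes 3 rose (Jhedup, Jheh1 and gce) and 2 fell (Jhe and Jheh3), 30% and 20% beside 20.9% and 24.3% of all tested genes. The esterase duplicate Jhedup averaged 202 ± 30.5 CPM in control RNAi and 42.2 ± 16.1 CPM in control (2.25 ± 0.48), while Jhe itself averaged 5.26 ± 0.62 and 15.9 ± 0.15 CPM (-1.60 ± 0.23). Of 16 genes of amine metabolism 5 rose (SerT, Hn, Vmat, Pu and DAT, by 0.16 to 0.35) and 3 fell. These were 31.2% and 18.8% of the list, beside the same shares of all tested genes. The acetyltransferase speck (Dat) averaged 116 ± 2.45 CPM in control RNAi and 206 ± 10.01 CPM in control (-0.83 ± 0.06). Tyrosine hydroxylase (ple), the rate-limiting enzyme of dopamine synthesis, averaged 83.7 ± 8.61 and 125 ± 4.33 CPM (-0.58 ± 0.09), and black (b) 64.0 ± 5.11 and 85.0 ± 7.46 CPM (-0.41), whose call was lost without control RNAi replicate 2 or control replicate 1.

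Of 42 antimicrobial and recognition genes 8 rose and 11 fell (19% and 26.2%), shares near the 20.9% and 24.3% of all tested genes. The peptide genes Mtk and DptA (Dpt) were lower at 4.59 ± 1.10 and 2.13 ± 0.51 CPM in control RNAi against 18.7 ± 7.92 and 7.27 ± 3.90 CPM in control, while AttA was higher at 6.97 ± 1.69 CPM in control RNAi and 1.42 ± 0.29 CPM in control (2.27 ± 0.36). With dpp overexpression Mtk averaged 558 CPM, DptA 484 CPM and AttA 78.1 CPM. Of 24 heat-shock genes 5 fell (20.8%, beside 24.3% of all tested genes) and 2 rose (Hsromega and stv, 8.33% beside 20.9%). The small heat-shock gene l(2)efl averaged 16.1 ± 0.76 CPM in control RNAi and 94.1 ± 6.27 CPM in control (-2.55 ± 0.20), Hsc70-1 23.3 ± 0.71 and 83.3 ± 8.71 CPM (-1.84 ± 0.23) and Hsp67Bc 6.89 ± 0.36 and 14.65 ± 1.12 CPM (-1.08 ± 0.09). The stress-inducible Hsp70 copies varied between control RNAi libraries, with 13.5, 130 and 79.7 CPM of Hsp70Ab, picked after its values were seen, against 20.4, 17.1 and 18.7 CPM in control. None of the 6 copies was called in edgeR, and DESeq2 called Hsp70Aa, Hsp70Ab and Hsp70Bb higher. In all, 7 heat-shock genes were higher with DESeq2 and 6 at an unadjusted p under 0.05 in edgeR. Near-identical Hsp70 copies share reads. Of 14 Turandot and JNK-pathway genes 3 rose (rpr, puc and Gadd45; 21.4%) and 2 fell (TotX and dome; 14.3%), beside 20.9% and 24.3% of all tested genes. The secreted stress protein TotX averaged 49.5 ± 4.70 CPM in control RNAi and 167 ± 11.8 CPM in control (-1.75 ± 0.14).

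Detoxification genes gave 44 higher and 26 lower of the 138 tested among 157 (31.9% and 18.8%, beside 20.9% and 24.3% of all tested genes). The cytochrome P450 gene Cyp4e3 had 436, 478 and 470 CPM in control RNAi against 49.6, 48.5 and 42.6 CPM in control (3.30 ± 0.18, adjusted p = 8.4e-08). Ugt37B1 (Ugt37b1) averaged 11.9 ± 0.46 CPM in control RNAi and 2.06 ± 0.21 CPM in control (2.52 ± 0.13), and the glutathione transferase GstE4 51.3 ± 7.01 and 9.29 ± 3.90 CPM (2.45 ± 0.40). Of 50 cuticle genes tested among 124, 8 rose and 12 fell, shares near those of all genes. Cpr47Ef averaged 4.77 ± 0.73 CPM in control RNAi and 20.4 ± 2.69 CPM in control (-2.10 ± 0.25), and Cpr11B 10.8 ± 1.09 and 28.8 ± 3.43 CPM (-1.42 ± 0.31).

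Of 13 haemocyte genes 4 rose (PPO2, srp, PPO1 and crq) and 2 fell (Sr-CI and Pxn), 30.8% and 15.4% beside 20.9% and 24.3% of all tested genes. Among the higher ones were the prophenoloxidase PPO2 (PO45; 39.0 ± 2.28 CPM in control RNAi, 24.5 ± 0.48 CPM in control, 0.67 ± 0.08) and the GATA factor srp (118 ± 11.3 and 77.5 ± 2.23 CPM, 0.61 ± 0.07). The scavenger receptor gene Sr-CI was lower at 11.9 ± 1.48 CPM in control RNAi and 28.6 ± 3.51 CPM in control (-1.27 ± 0.45, adjusted p = 0.0417), a call that was lost without any 1 of the 6 libraries, without a filter and with the replicate block. Of 8 tracheal genes trh rose (0.38) and verm fell (-0.27), and verm was not called with DESeq2, with RLE scaling, with the length trend removed, without control RNAi replicate 2 or 3 or without any 1 control library. Of 14 sex-biased genes 3 rose (Sxl, Yp3 and roX1) and 3 fell (Cyp4d21, tra and dsx, of which dsx was not called with DESeq2). Each direction held 21.4% of the list, near the 20.9% and 24.3% of all tested genes. The male-specific lncRNA roX1 stood at 2174, 2172 and 2281 CPM in control RNAi and 1923, 1870 and 1961 CPM in control, and the yolk protein gene Yp1 at 1.08 to 6.17 CPM in control RNAi and 2.44 to 2.71 CPM in control. Sxl was higher at 374 ± 3.76 CPM in control RNAi and 199 ± 5.79 CPM in control (0.91 ± 0.08). None of the 3 male reproductive genes tested among 27 and none of the 5 ovary genes tested among 19 was called in edgeR (1 and 0 at an unadjusted p under 0.05, 0 and 0 with DESeq2), and the 1 Y-linked gene tested among 8, FDY (CG41503), was not called.

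Of 23 tested genes of the BMP pathway, the subject of the series, 8 rose and 3 fell (gbb, Dad and Med, of which Med was not called with DESeq2), and of 14 Dpp target genes 1 rose and 2 fell. The shares were 34.8% and 13% for the BMP pathway and 7.14% and 14.3% for Dpp targets. Over all tested genes 20.9% were higher and 24.3% lower. The cell-surface glypican gene dlp averaged 92.3 ± 2.45 CPM in control RNAi and 55.5 ± 3.06 CPM in control (0.73 ± 0.07), and the transducer Mad 75.9 ± 1.43 and 61.1 ± 1.62 CPM (0.31 ± 0.04). Dad, the inhibitory Smad that Dpp signalling induces, averaged 63.2 ± 1.07 CPM in control RNAi and 74.0 ± 1.29 CPM in control (-0.23 ± 0.04, adjusted p = 0.000538). The target gene bi rose (0.56), caup fell (-0.36), and the type I receptor gene tkv was not called (0.03). In the small RNA machinery 3 of 12 rose (AGO1, vig and loqs) and 6 fell. AGO1, the microRNA effector, averaged 588 ± 21 CPM in control RNAi and 373 ± 4.74 CPM in control (0.66 ± 0.07), while AGO2 and Dcr-2, the effector and dicer of RNA interference, were at -0.26 (called) and -0.10 (not called). Of 20 autophagy genes Atg18b (CG8678; 0.48), Atg8a (0.44), Atg13 (0.23) and Atg17 (CG1347; 0.20) rose, and Atg14 (CG11877), Atg9, Atg7 and Atg6 fell by less (-0.21 to -0.14). Each direction held 20% of the autophagy list, near the shares of all tested genes. With DESeq2 Atg14, Atg7 and Atg6 were not called. Of 10 basement membrane genes wb rose (0.73) and Ndg fell (-0.38), of 4 histone genes tested among 123 His3.3B rose (0.38), and of 5 activity-induced genes Hr38, sr and CG14186 rose and kay fell (-0.34).

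The genes with the largest changes included several that split the libraries by title. The 6 libraries without RNAi in their title were also the only ones of code block 043. Title and code block therefore cannot be told apart in this split. CG11313 had 95.1, 99.8 and 97.5 CPM in control RNAi against 0.127, 0.183 and 0.236 CPM in control (9.08 ± 0.12, adjusted p = 2.79e-17). Its mean was 80.7 CPM with dpp RNAi #1 and 70.9 CPM with #2, but 0.435 CPM with dpp overexpression. The axonemal dynein gene Dhc98D followed the same split, at 18.7 ± 1.81 CPM in control RNAi and 1.32 ± 0.26 CPM in control (3.79 ± 0.13), and at 18.2, 17.02 and 0.719 CPM in those 3 dpp groups. CG6912, the fat body gene tobi and Osi2 also belonged to it, with log2 fold changes of 3.61, 3.61 and 3.01. In the opposite direction Tektin-C, an axonemal gene chosen after its values were seen, averaged 1.90 ± 0.18 CPM in control RNAi and 43.9 ± 2.98 CPM in control (-4.52 ± 0.19), and 1.42, 1.11 and 42.2 CPM in the same 3 groups. In all, 597 genes (5.6%) lay above and 536 (5.02%) below the other 6 libraries in all 9 libraries with RNAi in their title, together 10.6% of tested genes, and 111 and 47 of these were called at least 2-fold higher and lower in control RNAi than in control.

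Other leading genes set control RNAi or control apart alone. For 1780 genes (16.7%) all 3 control RNAi libraries lay above (929) or below (851) the other 12, and 139 and 180 of these were among the genes called at least 2-fold higher and lower. For the control libraries the number was 690 (6.47%), with 370 above (3.47%) and 320 below (3%). The corresponding numbers were 235 for dpp RNAi #1, 1140 for dpp RNAi #2 and 1940 for dpp overexpression. CG30054 averaged 31.1 ± 2.15 CPM in control RNAi and 2.14 ± 0.41 CPM in control (3.85 ± 0.18), CG7900 27.8 ± 1.64 and 1.98 ± 0.30 CPM (3.79 ± 0.20), and both had between 2.59 and 20.2 CPM in the 3 dpp groups. CG7900 was among the genes lowest in control, as was CG16826, with 13.2, 11.3 and 1.30 CPM in control RNAi against 0.054, 0.018 and 0.026 CPM in control. The neuronal capsid-like gene Arc1, chosen after its values were seen, was also lowest in control, at 1016, 1391 and 726 CPM in control RNAi against 188, 215 and 229 CPM in control (2.31 ± 0.25).

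**Figure D4:**
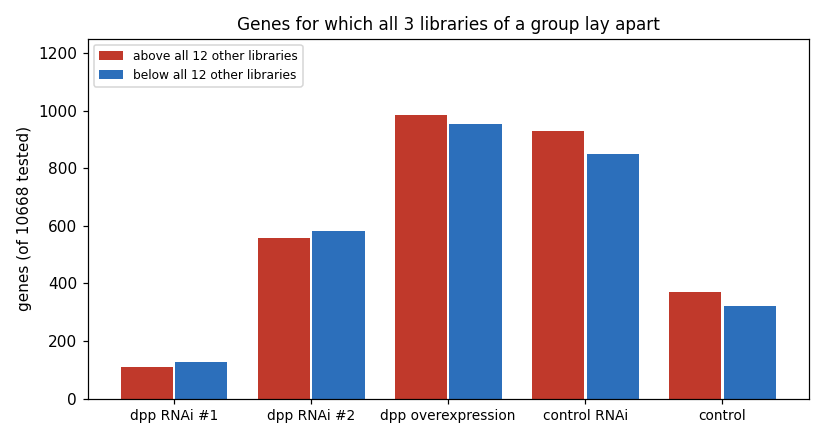
Number of tested genes (of 10668) for which all 3 libraries of a group lay above (red) or below (blue) the other 12 libraries, for each of the 5 groups, without a test. Control RNAi had 929 and 851 such genes and control 370 and 320, beside 235 in all for dpp RNAi #1.

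Among the genes that fell most, CG14607 had 0.062, 0.066 and 0.031 CPM in control RNAi against 9.85, 9.08 and 7.40 CPM in control (-7.29 ± 1.10, adjusted p = 0.000347). CG13428 had 10.6, 3.71 and 0.093 CPM in control RNAi against 276, 254 and 201 CPM in control (-5.66 ± 0.77). Its fold change moved to -7.03 without control RNAi replicate 1 (-5.66 with all 3 libraries). CG2663 averaged 0.084 CPM in control RNAi and 5.90 CPM in control (-6.07), CG18540 0.225 and 11.4 CPM (-5.67) and CG13177 0.137 and 5.64 CPM (-5.33). The value for CG2663 was -6.84 without control RNAi replicate 1, and that for CG18540 was -6.67 without replicate 2 and -5.08 without replicate 3. CG13428 averaged 250 CPM with dpp RNAi #1 and 113 CPM with dpp overexpression, and CG18540 11.4 and 3.77 CPM in those groups. CG33702 had no counts in control RNAi and 217 in control, at least 49.7-fold lower against a floor of 3 counts over the group, and it averaged 0.049, 0.108 and 0.165 CPM in the 3 dpp groups. CG18577, CG34028 and CG42335 had 1, 3 and 3 counts over control RNAi and 179, 239 and 170 over control. In the other direction whe (CG1678), CG3117 and CG10943 had 412, 192 and 152 counts over control RNAi and 1 each over control. The level of whe varied between the control RNAi libraries, at 4.10, 8.56 and 0.559 CPM. The gene lcs also varied, at 6.42, 9.05 and 1.89 CPM in control RNAi against 0.561, 0.624 and 0.761 CPM in control.

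Some of the genes changed at least 2-fold were neighbours in the dm6 annotation, which served for gene order only. The longest run had 6 adjacent tested genes on chromosome arm 2R, CG14502, CG18536, CG18537, CG18538, CG18539 and CG18540, all lower in control RNAi by -6.52 to -3.18 on the log2 scale. The CheB38 genes on 2L (-6.2 to -5.0) and the CheB42 genes on 2R (-4.91 to -2.79) each formed a run of 3 lower genes. On 2R, Or47b, sha, alphaTry and betaTry formed a run of 4 higher genes (2.63 to 7.48), and on 3R so did Osi5, Osi7, Osi8 and Osi9 (1.13 to 2.17). By arm, calls made up 40.2% of 1723 genes on the X and 44.6 to 46.9% on the large autosomal arms. On the fourth chromosome 61 of 86 genes were called (70.9%), 53 of them higher, with a median of 0.32. The genes there were long, with a median exonic length of 3946 bases against 1908 to 2319 on the other arms. Over all tested genes, the eighth and ninth deciles of exonic length spanned 3065 to 5678 bases. In them 20.9% and 28.9% were called higher, with medians of -0.017 and 0.024. The part of length in the calls on the fourth chromosome was not tested.

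Longer genes were more often higher in control RNAi, and so were the most abundant genes. In the shortest decile of genes by exonic length 13.5% were called higher and 28.7% lower, with a median log2 fold change of -0.13. In the longest decile 45.4% were called higher and 13.8% lower, with a median of 0.12. By level, 10.9% were called higher and 34.1% lower in the fourth decile, against 41.2% higher and 14.2% lower in the highest. The trend with level was not monotone, since the lowest decile had 16.5% higher and 13% lower. The share of reads outside annotated genes also differed, at 9.23 to 9.65% in control RNAi and 6.999 to 7.29% in control. The part of these trends in any gene's change was not tested, beyond the fit with the length trend removed, which made 2413 higher and 2297 lower calls and left sarcomere, contact chemosensory, odorant receptor and fat body medians at -1.01, -4.27, 1.88 and 0.43.

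**Figure D5:**
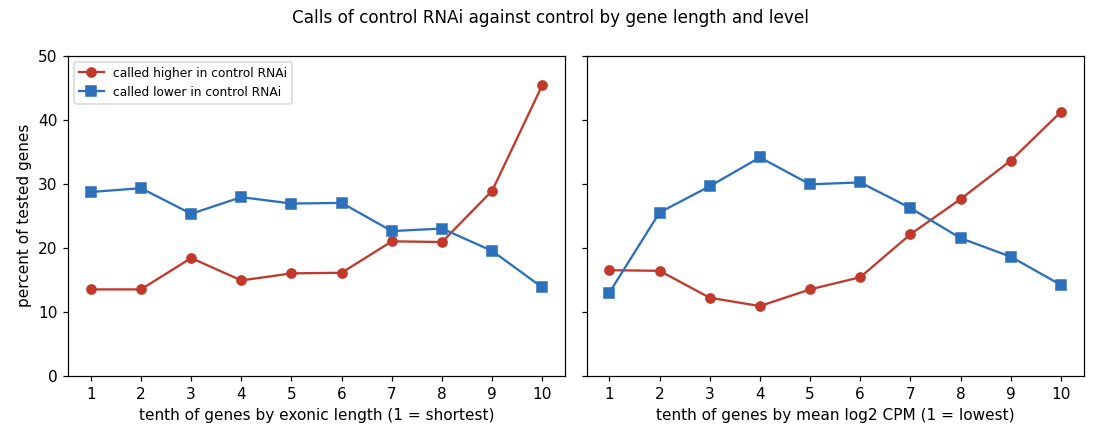
Percent of tested genes called higher (red) and lower (blue) in control RNAi, by decile of exonic length (left) and by decile of mean log2 CPM over the 6 libraries (right). Calls higher in control RNAi reach 45.4% in the longest decile and 41.2% in the most abundant decile.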

How the data were processed

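Gene-level read counts of 15 RNA-seq libraries were deposited by the authors as 1 HTSeq file per library, whose second column held whole-number counts per gene symbol. Per the submitters' processing notes the tools named were BWA, STAR and HTSeq and the genome build dm3, with versions not given in the sources used here. The counts carried no normalization, and the summary lines were removed before library sizes were computed. Total stranded RNA was named in the labels, and whether strand was used in counting was not given, so overlapping and antisense genes cannot be separated with certainty. Groups came from the titles. The members and gene lists were chosen with earlier results of these data known.

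Genes were tested in R 4.3.3 with edgeR 4.0.16 by a quasi-likelihood test with robust dispersion, TMM scaling, filterByExpr with a minimum count of 10 and a term per group over all 15 libraries, which left 10 residual degrees of freedom. The contrast was control RNAi over control, with Benjamini-Hochberg adjustment over 10668 genes and a threshold of 0.05. A gene "rose" or "fell" only if it passed this test. DESeq2 1.42.0 was an alternative, as were other scalings, filters, a fit of the 6 libraries alone, a replicate block and leaving out each library. A fit with each library's loess trend of log2 CPM on exonic length removed was added after the data were seen. Simulated data for this comparison held 10668 genes, of which 10468 were unchanged. Of the 66 genes changed by 0.5 on the log2 scale 72.7% were called. The share was 80.6% of the 67 changed by 1 and 98.5% of the 67 changed by 2. Among the 10468 unchanged genes there were 6 false calls. The number of false calls was not tested with a share of changed genes as large as the 45.2% called between the libraries. It was also not tested for differences tied to scaling, exonic length or code block.

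Current symbols, gene order and exonic length came from a dm6 annotation, with 11943 of 15682 symbols matched directly, 3379 through a synonym, 200 ambiguous and 160 unmatched. File symbols stand in brackets where they differ. The builds differ, so no coordinates are given. Genes named were dpp and w, the 10 most higher and 10 most lower called genes with at least 5 CPM in the higher group and no overlap, up to 3 called members of each list by size of change, genes with at most 3 counts in 1 group and at least 1 CPM in the other, and the 10 most abundant genes. Other genes were chosen after their values were seen. Figures were drawn with matplotlib 3.10.9, and tables were handled with Python 3.11.15, pandas 2.3.3 and numpy 2.4.6. Depth was 31767317 to 53325394 gene counts in the 6 libraries compared, and 3 counts, taken as the limit that a count of 0 allows, equal 0.0563 to 0.0944 CPM. Intervals and floors cover counting error only.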

Additional observations from a re-analysis of the deposited data

Results flagged for a closer look

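Reads that were not assigned to a gene differed between the control RNAi and control libraries, although they enter no gene comparison. The share of reads outside annotated genes was at least 9.23% in each of the 3 control RNAi libraries and at most 7.29% in each of the 3 control libraries. Reads overlapping several genes made up at least 2.75% in control RNAi and at most 2.38% in control. Reads aligned to several places made up at least 5.25% in control RNAi and at most 3.71% in control. The part of these shares in the gene results was not tested.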

How the results depend on the processing

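Across scalings, filters and tools the number of genes called lower moved beyond 1.5 times with library size as the only scaling (4213, against 2589 with TMM), where the median of all tested genes was -0.13, and the number called at least 2-fold changed moved with a minimum count of 50 (484, against 728), where fewer genes were tested. Leaving out 1 library at a time gave 3908 to 4528 calls in all, against 4823, with 1859 to 2092 higher, 2038 to 2436 lower and 700 to 735 changed at least 2-fold, and called 29 to 33 sarcomere genes, against 30. A fit of the 6 libraries alone made 5496 calls, of which 4556 were shared with the fit of 15 libraries (94.5% of the 4823 and 82.9% of the 5496), and DESeq2 made 4692, of which 4352 were shared (90.2% of the 4823 and 92.8% of the 4692). None of the 145 genes changed direction under the alternatives run. Of 870 values without 1 library 28 lost and 1 gained a call, and of 1589 values under other alternatives 15 lost and 8 gained one. Among the 145 genes named by rule, those that lost calls were Sr-CI, y, verm, Gadd45, b, eEF2, DptA and nej. Of the 598 called members of the lists, 163 lost their call in at least 1 alternative and 26 were not called by DESeq2. Other named members that lost a call without at least 1 library were Tret1-1, inaD, Hn, Pu, ppk25, Ir52b, Yp3, Lpin, Nplp4, wrapper, DAT, Pxn, PPO1, roX1, dsx, rpr, stv, Hsromega, RpS15Ab, mRpL43, Prosalpha6, Prosbeta5, gbb, Med, cyc, jet, ImpE1, Atg6, Atg7 and Atg14. DptA was not called in the fit of the 6 libraries alone, and nej was not called with the length trend removed. Of 697 list counts 40 moved beyond 1.5 times, in 18 of 41 lists; the cytosolic ribosome count was 28 and ranged from 14 with library size as the only scaling to 64 with the length trend removed. Deviations of same-numbered libraries correlated at 0.016, 0.17 and -0.111 across genes, and those of different-numbered libraries at -0.185 to 0.168. With so few libraries a group this cannot exclude a pairing by replicate number. The fit with a replicate block made 4882 calls. Genes near 3 counts per library have folds that counting error limits.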
